A study of Saccharomyces cerevisiae with 6 samples.

Results

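The 10 genes described here encode the enzymes that make and break down the storage carbohydrates glycogen and trehalose in Saccharomyces cerevisiae. They are the glycogen synthases GSY1 and GSY2, the branching enzyme GLC3, glycogen phosphorylase GPH1, the shared sugar-phosphate enzymes PGM2 and UGP1, the trehalose synthase subunits TPS1, TPS2 and TSL1, and the neutral trehalase NTH1. They were chosen by name, and all 10 were found once each among the 5605 nuclear mRNA features of the deposited tables. RNA came from mitochondria isolated from cultures of the haploid laboratory strain CEN.PK113-7D, 3 of them grown on ethanol (an ethanol-glycerol synthetic medium) and 3 on glucose, all harvested in mid-exponential growth in shake flasks. No genotype other than CEN.PK113-7D was used, so the carbon source was the single labelled difference. The RNA was given poly(A) tails with an enzyme and read directly on a Nanopore instrument, so that each read is 1 RNA molecule or fragment rather than a cDNA copy. Whole-cell RNA was not analysed here, so the level of an mRNA in the cell and the amount that was carried along with the mitochondria cannot be told apart.

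Both carbohydrates are built from glucose 6-phosphate. Phosphoglucomutase turns it into glucose 1-phosphate and UGP1 makes UDP-glucose, which glycogen synthase adds to a growing glucan chain and TPS1 joins to glucose 6-phosphate to give trehalose 6-phosphate. TPS2 removes the phosphate to give trehalose, while TSL1 and its relative TPS3 are regulatory subunits of the same complex. Yeast stores both compounds when growth slows or stress sets in, and many of these genes are known to be repressed by glucose and induced through the stress factors Msn2 and Msn4.

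Levels are given as nuclear RPM, reads per 1000000 nuclear mRNA reads with the gene ENO2 left out of the total, because ENO2 alone took between 4.94% and 49.9% of all CPM in the ethanol libraries and between 2.63% and 6.81% in the glucose libraries. The ethanol libraries held 8284, 19087 and 63081 such nuclear reads in replicates 1, 2 and 3, and the glucose libraries 121147, 97474 and 107311. A single read was thus worth 121, 52.4 and 15.9 RPM in ethanol and between 8.25 and 10.3 RPM in glucose. Ethanol libraries also resembled each other less, with Pearson's r of log2 levels across tested features between 0.537 and 0.673, against 0.952 to 0.958 among glucose libraries. Ethanol replicate 3, the deepest of its group, was more like the glucose libraries than the other ethanol libraries were. Its r with glucose libraries was between 0.502 and 0.535, while ethanol replicates 1 and 2 had between 0.152 and 0.215. With ethanol replicate 1 the r of ethanol replicate 3 was 0.537, and with ethanol replicate 2 it was 0.620. Mitochondrially encoded features took between 3.15% and 12.6% of the CPM in ethanol and between 6.41% and 7.50% in glucose, while cytosolic rRNA took between 37.3% and 81.5% in ethanol and between 72.7% and 81.1% in glucose. The read numbers of single genes were low, so sums over genes are given first.

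Together the 10 genes took a larger part of the nuclear mRNA in ethanol than in glucose on this scale. Their sum was 4467, 5606 and 5644 RPM in ethanol replicates 1, 2 and 3, from 37, 107 and 356 reads. In glucose replicates 1, 2 and 3 it was 2459.8, 2211 and 1779.9 RPM, from 298, 216 and 191 reads. Every ethanol library lay above every glucose library, and the exact 95% binomial intervals did not meet either, reaching down to 3147 in ethanol replicate 1 and up to 2755 in glucose replicate 1. The means were 5239 ± 669 RPM in ethanol and 2150.2 ± 344 in glucose (SD, n = 3 each), a ratio of 2.44. Without ethanol replicate 3 the ratio was 2.34. No single gene carried the ratio, which was between 2.22 and 2.88 when any 1 of the 10 was left out. The ratio depends on the scale: it was 1.39 on the deposited CPM and 0.680 when ENO2 was counted in the nuclear total.

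**Figure D1:**
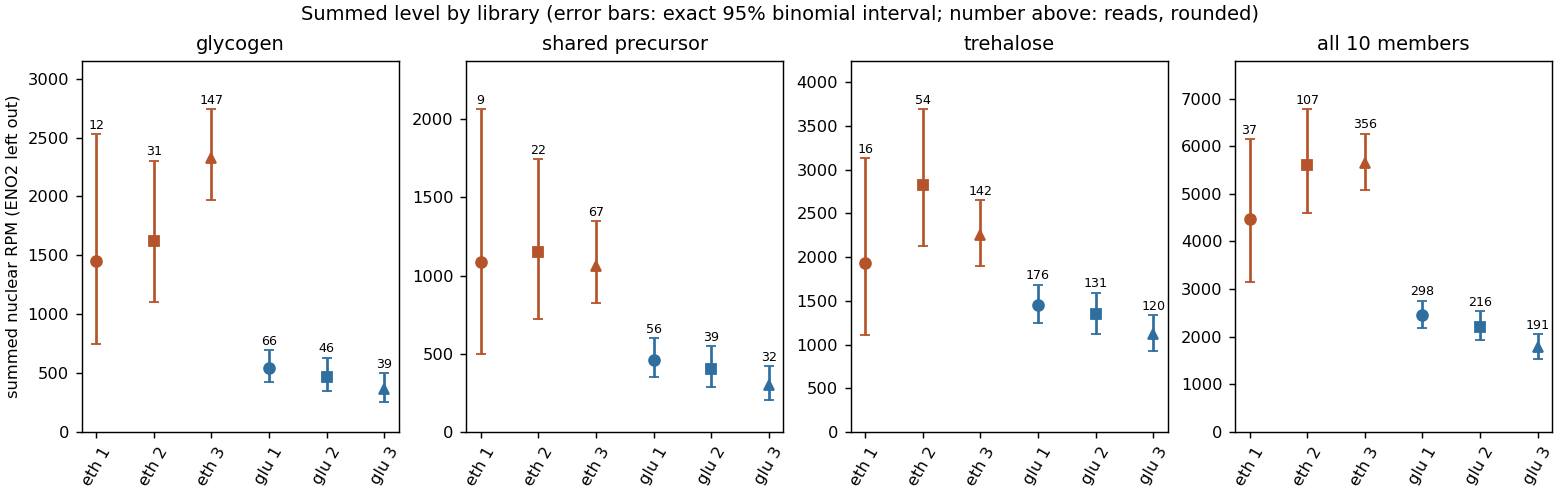
Summed nuclear RPM (reads per 1000000 nuclear mRNA reads, ENO2 left out) for the 4 glycogen genes, the 2 genes of the shared precursor steps, the 4 trehalose genes and all 10, in each ethanol library (left, brown) and glucose library (right, blue). Error bars are exact 95% binomial intervals, which cover counting error only, and the number above each point is its reads; the 10 genes together sit between 4467 and 5644 in ethanol and between 1779.9 and 2459.8 in glucose.

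The 3 steps of the pathway differed in the size of this ratio. The 4 glycogen genes summed to 1801 ± 467 RPM in ethanol and 458 ± 91.0 in glucose, a ratio of 3.93. The 2 precursor genes, PGM2 and UGP1, summed to 1100.4 ± 46.8 in ethanol and 387 ± 82.8 in glucose, a ratio of 2.84. For the 4 trehalose genes the sums were 2337 ± 455 in ethanol and 1305 ± 171 in glucose, a ratio of 1.79 (SD, n = 3 each). In all 3 groups of genes the lowest ethanol library lay above the highest glucose library. These directions hold for the scale without ENO2: on the deposited CPM the ratios were 2.33 for glycogen, 1.52 for the precursor steps and 1.02 for trehalose, and with ENO2 in the total they were 1.17, 0.778 and 0.481, so that the last 2 turned. Without ethanol replicate 3 they were 3.35, 2.89 and 1.82. The balance between glycogen and trehalose genes does not depend on how a library is scaled. Glycogen reads per trehalose read were 0.750, 0.574 and 1.04 in ethanol replicates 1, 2 and 3, against 0.375, 0.347 and 0.325 in glucose, without overlap. These sums and ratios over chosen genes were not tested.

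Single genes were tested with limma on log2 of the level plus 50 RPM, over the 2008 nuclear features with a mean of at least 100 RPM, and a gene is said to have changed where its Benjamini-Hochberg adjusted p was under 0.05. All 10 genes passed the filter, although GSY2 and GPH1 had glucose means under 100 RPM and so passed through their ethanol levels. GPH1, PGM2, GLC3, TPS1 and TSL1 rose in ethanol, which makes 5 of the 10 genes called higher, against 17.7% of all features tested. None of the 10 was called lower, against 15.9% of all features, and GSY1, GSY2, UGP1, TPS2 and NTH1 did not pass. Without ethanol replicate 3 the same 5 genes were called higher, with 500 features called higher in all. In 6 of the 10 genes all ethanol libraries lay above all glucose libraries, as they did in 26.4% of the features tested. The median log2 fold change was 0.96 over the 10 genes and -0.03 over all features tested. These directions hold for the scale without ENO2. On the deposited CPM, where the median of all features was -0.86 and 2.99% were called higher, none of the 10 passed. With ENO2 in the total, where that median was -1.38 and 61.9% of the features were called lower, UGP1, TPS2 and NTH1 were called lower and none of the 10 higher. The median of the 10 genes lay above that of all features by 0.93 on the deposited CPM and 0.86 with ENO2, against 1.00 without it. A change of scale multiplies all levels of a library by 1 factor, so this distance could move only through the pseudocount. It is therefore no separate support.

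**Figure D2:**
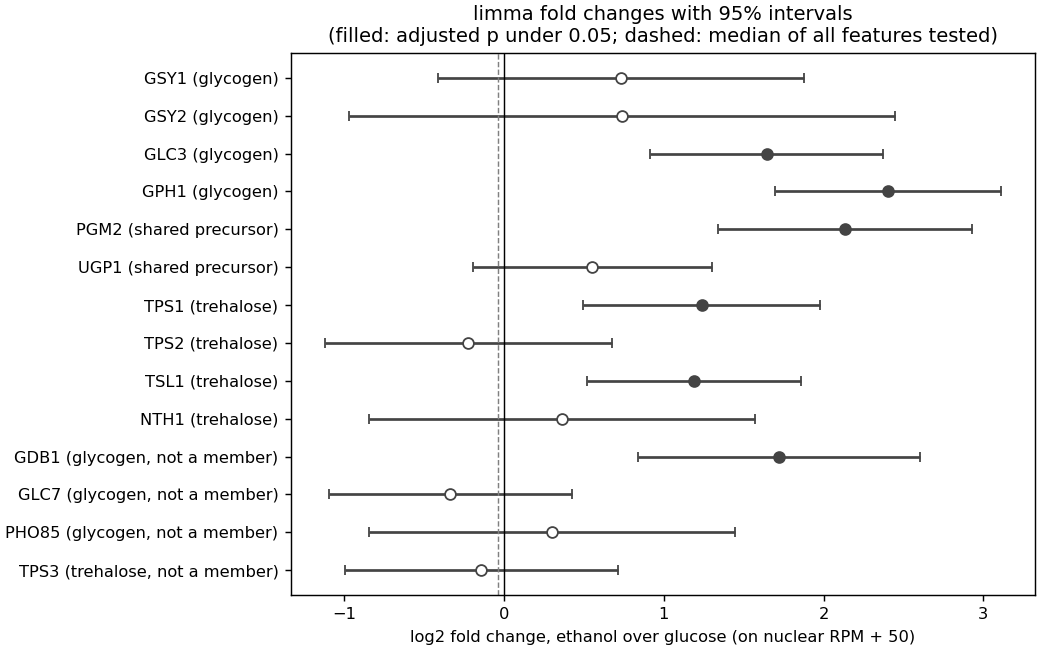
Log2 fold changes of ethanol over glucose (horizontal axis, on levels plus 50 RPM) with 95% intervals from limma, for the 10 genes and the other pathway genes that passed the filter. Filled points have an adjusted p under 0.05, the dashed line is the median of all features tested at -0.03, and GPH1 lies farthest to the right at 2.40.

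Glycogen breakdown showed the clearest difference. GPH1 (YPR160W, chromosome 16, 863466 to 866141, plus strand of the CEN.PK113-7D assembly), which releases glucose 1-phosphate from glycogen, had 604, 576 and 745 RPM in ethanol replicates 1, 2 and 3, from 5, 11 and 47 reads. In glucose it had 107, 71.8 and 65.2 RPM, from 13, 7 and 7 reads. All ethanol values lay far above the glucose values, and the lowest ethanol value was more than 5 times the highest glucose value. The means were 642 ± 90.6 in ethanol and 81.5 ± 22.6 in glucose (SD, n = 3 each). The log2 fold change was 2.40 (SE 0.31, adjusted p = 0.000915, limma), rank 117 of 2008 from the highest. GPH1 passed the filter through its ethanol level, and without a filter the adjusted p was 0.00124 (limma). Within the glycogen genes GPH1 took 41.7%, 35.5% and 32.0% of the reads in ethanol and 19.7%, 15.4% and 17.9% in glucose. This measure is free of library scaling, and the values did not overlap. Their exact 95% intervals did. In ethanol these were 15.2% to 72.3%, 19.2% to 54.6% and 24.5% to 40.2%. In glucose they were 10.9% to 31.3%, 6.34% to 28.9% and 7.54% to 33.5%.

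GDB1 (YPR184W, chromosome 16, 904095 to 908705, plus strand), the debranching enzyme that works with phosphorylase and belongs to the wider pathway list, was also called higher, although with a glucose mean under 100 RPM it passed the filter through its ethanol level. It had 362, 262 and 206 RPM in ethanol and 24.8, 71.8 and 51.3 in glucose, and the log2 fold change was 1.72 (SE 0.39, adjusted p = 0.0109, limma). Behind these levels stood 3, 5 and 13 ethanol reads and 3, 7 and 5.5 glucose reads. Without a filter the adjusted p was 0.0212 (limma). The call was lost without glucose replicate 1 (adjusted p = 0.0573, limma) and without glucose replicate 3 (adjusted p = 0.0506, limma). In these 2 fits 11.1% and 9.56% of all features were called higher, against 17.7% in the main fit.

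Of the genes for glycogen synthesis, the branching enzyme changed while the synthases did not pass. GLC3 (YEL011W, chromosome 5, 134031 to 136145, plus strand), which makes the branch points of the glucan, had 724, 472 and 587 RPM in ethanol and 182, 174 and 112 in glucose. The groups stood well apart, and the log2 fold change was 1.64 (SE 0.32, adjusted p = 0.00623, limma). GSY1 (YFR015C, chromosome 6, 176000 to 178126, minus strand), an isoform of glycogen synthase, had 121, 262 and 666 RPM in ethanol and 173, 179.5 and 112 in glucose. Its ethanol libraries spread over more than 5-fold, so that replicate 1, with 1 read, lay inside the glucose range (log2 fold change 0.73, 95% interval -0.41 to 1.88, limma, adjusted p = 0.282).

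GSY2 (YLR258W, chromosome 12, 619962 to 622079, plus strand), the other synthase isoform, had 0, 314 and 333 RPM in ethanol replicates 1, 2 and 3, against 82.5, 41.0 and 74.5 RPM in glucose. The value of 0 in ethanol replicate 1 allows up to 362 RPM, above every other library, so that this library could not place GSY2 on either side of glucose. The log2 fold change was 0.74, with a 95% interval of -0.97 to 2.45 (limma, adjusted p = 0.463). Without ethanol replicate 1 it was 1.71 (limma, adjusted p = 0.00791), without ethanol replicate 2 it was 0.27 (limma, adjusted p = 0.821) and without ethanol replicate 3 it was 0.24 (limma, adjusted p = 0.815). With voom weights on recovered reads, a setting that called 22.3% of all features higher, both synthases were called, at 1.58 for GSY1 (adjusted p = 0.0129) and 2.09 for GSY2 (adjusted p = 0.00733). The synthases are similar in sequence, so a read of one may have been counted for the other. Their sum was 121, 576 and 999 RPM in ethanol and 256, 221 and 186 in glucose, so the groups overlapped through ethanol replicate 1 in the sum as well.

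**Figure D3:**
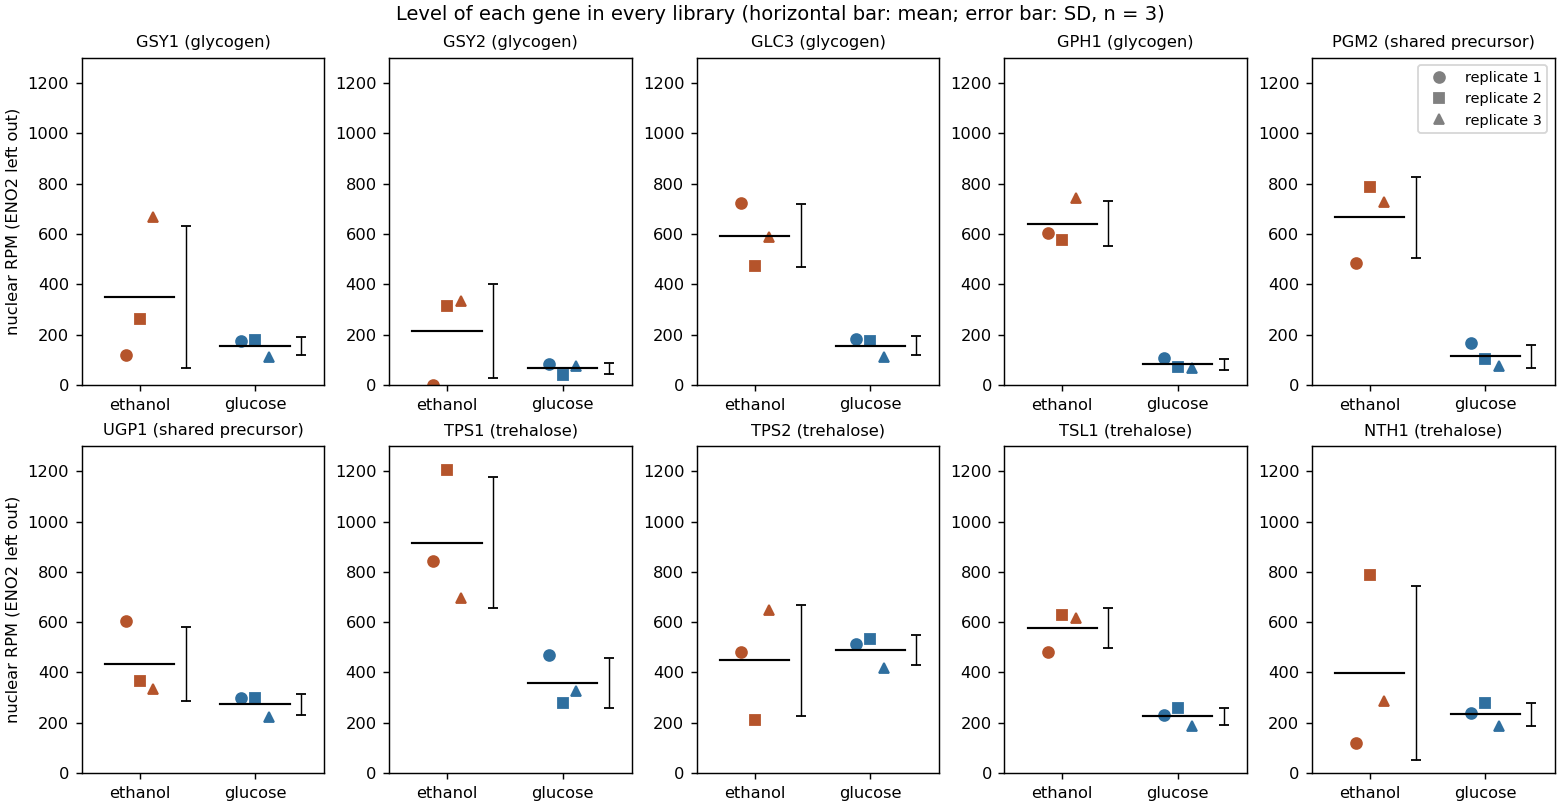
Nuclear RPM (vertical axis, ENO2 left out) of each of the 10 genes in the 3 ethanol libraries (left, brown) and the 3 glucose libraries (right, blue), with marker shapes for replicate numbers. Horizontal bars are means and error bars SD; GPH1, PGM2, GLC3, TPS1, TSL1 and UGP1 have every ethanol point above every glucose point, while GSY1, GSY2, TPS2 and NTH1 overlap.

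The shared steps towards UDP-glucose were split. PGM2 (YMR105C, chromosome 13, 447103 to 448812, minus strand), a phosphoglucomutase, had 483, 786 and 729 RPM in ethanol and 165, 103 and 74.5 in glucose. The lowest ethanol library, with 4 reads, lay above the highest glucose library, and the log2 fold change was 2.14 (SE 0.35, adjusted p = 0.00278, limma). UGP1 (YKL035W, chromosome 11, 375909 to 377408, plus strand), the UDP-glucose pyrophosphorylase, had 604, 367 and 333 RPM in ethanol and 297, 298 and 224 in glucose. Its ethanol libraries all lay above the glucose libraries, but by little, and the difference did not pass (log2 fold change 0.55, 95% interval -0.19 to 1.30, limma, adjusted p = 0.217).

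The phosphoglucomutase PGM1 (YKL127W, chromosome 11, 209865 to 211577, plus strand), a paralog of PGM2, had its lower values in ethanol. It had 0, 0 and 31.7 RPM in ethanol replicates 1, 2 and 3, from 2 reads in all, and 82.5, 144 and 168 RPM in glucose, from 42 reads. The values of 0 allow up to 362 RPM in ethanol replicate 1 and 157 RPM in replicate 2. The first limit lies above every glucose value and the second above those of glucose replicates 1 and 2. Only ethanol replicate 3 could thus place PGM1 below every glucose library. PGM1 had a mean under 100 RPM and so was not tested with the filter. Without a filter PGM1 was called lower in ethanol. Its log2 fold change was -1.59 (SE 0.46, adjusted p = 0.0438, limma), which depends on the pseudocount at so few reads. PGM2 held 4 of 4, 15 of 15 and 46 of 48 reads of the pair in ethanol, and 20 of 30, 10 of 24 and 8 of 26 in glucose. The exact 95% intervals were 39.8% to 100% in ethanol replicate 1, 78.2% to 100% in replicate 2 and 85.7% to 99.5% in replicate 3, against 47.2% to 82.7%, 22.1% to 63.4% and 14.3% to 51.8% in glucose. Summed, PGM1 and PGM2 had 677 ± 168 RPM in ethanol and 245 ± 2.77 in glucose (SD, n = 3 each), and the groups did not overlap. Reads of one could be counted for the other to the extent that their sequences are alike.

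Among the trehalose genes, TPS1 and TSL1 rose and TPS2 did not pass. TPS1 (YBR126C, chromosome 2, 476671 to 478158, minus strand), the trehalose 6-phosphate synthase, had 845, 1205 and 698 RPM in ethanol and 471, 277 and 326 in glucose. The groups did not overlap, and the log2 fold change was 1.24 (SE 0.33, adjusted p = 0.0206, limma). TSL1 (YML100W, chromosome 13, 65180 to 68473, plus strand), the large regulatory subunit, had 483, 629 and 618 RPM in ethanol and 231, 256 and 186 in glucose, and the log2 fold change was 1.19 (SE 0.30, adjusted p = 0.0159, limma). These calls depended on the glucose libraries: TPS1 was not called without glucose replicate 2 (adjusted p = 0.0977, limma) or 3 (0.0846), nor TSL1 without any 1 of the 3 (0.0663, 0.0606 and 0.0861 without replicates 1, 2 and 3). Without glucose replicates 1, 2 and 3, 11.1%, 9.36% and 9.56% of all features were called higher, against 17.7% in the main fit. The fold changes themselves stayed between 1.03 and 1.43 for TPS1 and between 1.09 and 1.30 for TSL1 when any 1 library was left out.

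TPS2 (YDR074W, chromosome 4, 580121 to 582811, plus strand), the trehalose 6-phosphate phosphatase, had 483, 209.6 and 650.0 RPM in ethanol and 512, 533 and 419 in glucose. Ethanol values lay on both sides of the glucose values, and the log2 fold change was -0.22, with a 95% interval of -1.12 to 0.67 (limma, adjusted p = 0.680). Its levels rest on 4, 4 and 41 ethanol reads and on 62, 52 and 45 glucose reads. Within the 4 trehalose genes it took 25.0%, 7.41% and 28.9% of the reads in ethanol and 35.2%, 39.7% and 37.5% in glucose, without overlap. Reads of TPS1 per read of TPS2 were 1.75, 5.75 and 1.07 in ethanol and 0.919, 0.519 and 0.778 in glucose. Counting error was wide in the shallow libraries, where the exact 95% interval of the TPS2 share ran from 7.27% to 52.4% in ethanol replicate 1. In ethanol replicate 3 it ran from 21.6% to 37.1%. That overlapped the glucose intervals of 28.2% to 42.8%, 31.3% to 48.6% and 28.8% to 46.8%.

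TPS3 (YMR261C, chromosome 13, 767146 to 770310, minus strand), the paralog of TSL1, had 121, 262 and 222 RPM in ethanol and 182, 318 and 177 in glucose. The groups overlapped, and the log2 fold change was -0.14 (95% interval -0.99 to 0.71, limma, adjusted p = 0.788). The 4 subunits of the complex, TPS1, TPS2, TSL1 and TPS3, summed to 1932, 2305 and 2188 RPM in ethanol and 1395, 1385 and 1109 in glucose.

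Trehalose breakdown gave no call. NTH1 (YDR001C, chromosome 4, 449884 to 452139, minus strand), the neutral trehalase of the cytosol, had 121, 786 and 285 RPM in ethanol, from 1, 15 and 18 reads, and 239, 277 and 186 in glucose. Ethanol replicate 2 stood above and replicate 1 below all glucose libraries (log2 fold change 0.37, 95% interval -0.84 to 1.57, limma, adjusted p = 0.613). NTH2 (YBR001C, chromosome 2, 234576 to 236918, minus strand), its paralog, was hardly read, with 1, 5 and 2 ethanol reads and 2, 2 and 1 glucose reads, which is 121, 262 and 31.7 RPM in ethanol and 16.5, 20.5 and 9.32 in glucose. It did not reach the filter, and without a filter it was not called (log2 fold change 1.32, limma, adjusted p = 0.124).

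**Figure D4:**
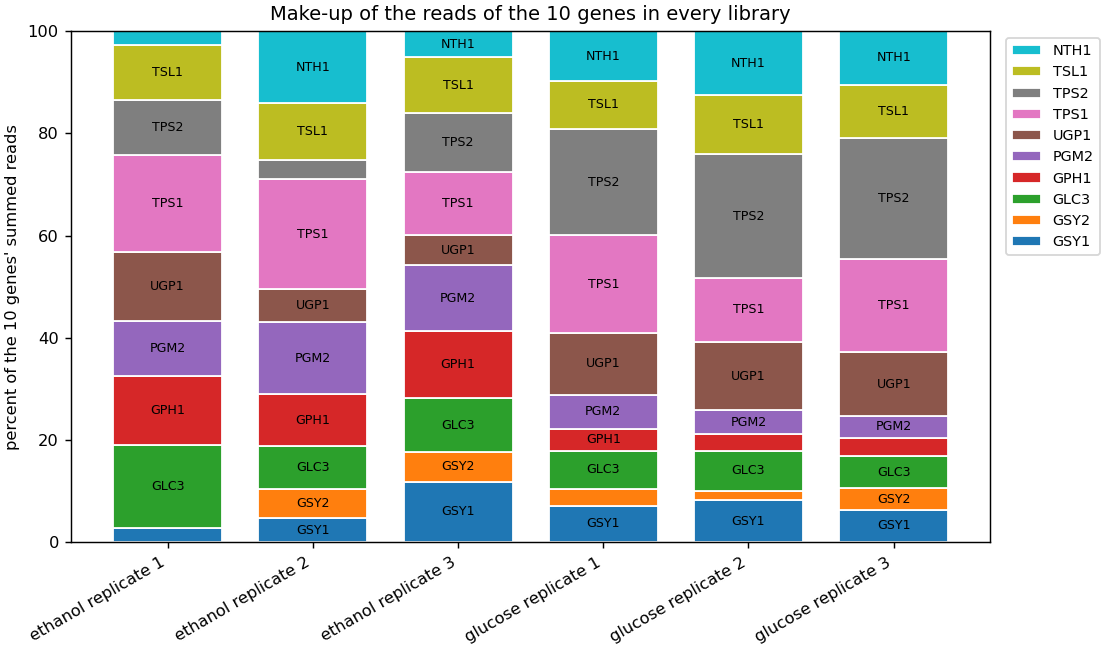
Percent of the summed reads of the 10 genes (vertical axis) that each gene took in every library, with ethanol replicates 1 to 3 on the left and glucose replicates 1 to 3 on the right. GPH1 takes between 10.3% and 13.5% in ethanol and between 3.25% and 4.36% in glucose, and TPS2 between 3.74% and 11.5% in ethanol and between 20.8% and 24.1% in glucose.

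The make-up of the 10 genes' reads, which does not change with library scaling, was compared between the media without a test. GPH1 made up 12.3% ± 1.78 in ethanol and 3.76% ± 0.563 in glucose, and PGM2 12.6% ± 1.63 in ethanol and 5.18% ± 1.35 in glucose (SD, n = 3 each). TPS2 took 8.69% ± 4.30 in ethanol and 22.8% ± 1.78 in glucose. These 3 genes and GLC3, with 11.7% ± 4.06 in ethanol and 7.18% ± 0.821 in glucose, had groups that did not overlap. For GLC3 the gap was small, 8.41% in ethanol replicate 2, from 9 reads, against 7.89% in glucose replicate 2. Such shares were not computed for genes outside the pathways, so the number without overlap has no background to be set against. The share of TSL1 was nearly even, at 10.8%, 11.2% and 11.0% in ethanol and 9.40%, 11.6% and 10.5% in glucose. As the parts add up to a fixed whole, these differences depend on one another.

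Per kilobase of feature length, TPS1 had the highest mean level of the 10 genes in both media. It had 615 ± 175 RPM in ethanol and 241 ± 67.6 in glucose (SD, n = 3 each). As each read is 1 molecule or fragment, dividing by length favours short genes, and TPS1 is the shortest of the 10. Without that division TPS1 was highest in ethanol at 916 ± 261 RPM, but TPS2 was highest in glucose. There TPS2 had 488 ± 60.6 RPM and TPS1 358 ± 101. Per kilobase, PGM2 followed TPS1 in ethanol at 389 ± 94.2 RPM, against 66.7 ± 27.1 in glucose. UGP1 had 289.6 ± 98.3 in ethanol and 182 ± 28.4 in glucose, and TPS2 had 166 ± 82.6 in ethanol and 181 ± 22.5 in glucose, where these 2 followed TPS1 and the 3 genes did not differ beyond their spread. In glucose replicate 2, UGP1 and TPS2 lay above TPS1 per kilobase. GPH1 stood in the middle of the order in ethanol, with 239.8 ± 33.9 RPM per kilobase, and at the bottom in glucose, with 30.4 ± 8.46. GSY2 had the lowest mean in ethanol with 102 ± 88.3, which includes the 0 of ethanol replicate 1. GSY1, at 164 ± 133 in ethanol, was within that spread. In glucose the 31.2 ± 10.4 of GSY2 was within the spread of GPH1.

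Feature length moved with the medium in these libraries. Among tested features, the slope of log2 level on log2 length was -0.34, -0.37 and -0.18 in ethanol replicates 1, 2 and 3, against 0.07, 0.08 and 0.13 in glucose, so that longer features had relatively lower levels in ethanol. The 10 genes were long, between 1488 and 3294 bases with a median of 2122.5, against a median of 1287 over all features tested. With the length trend removed within each library, the same 5 genes were called higher, against 14.9% of all features, with log2 fold changes of 2.82 for GPH1, 2.30 for PGM2, 1.93 for GLC3, 1.72 for TSL1 and 1.32 for TPS1, and TPS2 was at 0.20. None of the 10 features overlaps another listed feature, and 9 of them had whole read numbers in all 6 libraries. The exception was GSY1, with 17.5 reads in glucose replicate 2.

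Another 17 genes of the pathways were listed, and 16 were found in the tables by name. Only 4 of the 16 reached a mean of 100 RPM. GDB1 was called higher and the other 3 were not called. They were TPS3 and a pair named after their values were seen: the protein phosphatase GLC7, at 196 ± 42.5 RPM in ethanol and 263 ± 67.7 in glucose, and the kinase PHO85, at 124 ± 102 in ethanol and 77.6 ± 13.4 in glucose. All 16 summed to 1526 ± 227 RPM in ethanol and 1074 ± 103 in glucose (SD, n = 3 each), a ratio of 1.42. This ratio holds for the scale without ENO2 and was not computed on the other scales. In the fit without a filter, which called 5.72% of 5472 features higher and 7.26% lower, 3 of the 16 were called, GDB1, PGM1 and GAC1. GAC1 (YOR178C), which targets the phosphatase GLC7 to glycogen synthase, rested on 1, 3 and 18 ethanol reads and on 2, 0 and 1 glucose reads, and the log2 fold change was 1.97 (SE 0.47, adjusted p = 0.0197, limma). The acid trehalase ATH1 (YPR026W), named after its values were seen, had 121, 209.6 and 159 RPM in ethanol and 24.8, 30.8 and 28.0 in glucose, and its adjusted p without a filter was 0.05005 by limma. The glycogenin GLG1 (YKR058W), also named after its values were seen, had 0, 0 and 63.4 RPM in ethanol and 90.8, 92.3 and 112 in glucose (adjusted p = 0.125, limma). Its values of 0 allow up to 362 RPM in ethanol replicate 1 and 157 RPM in replicate 2, above every glucose value.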

How the data were processed

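The authors deposited CPM values (reads scaled to 1000000 assigned reads) of 3 replicates in a table for each medium, and per the file headers features lie on a CEN.PK113-7D assembly. Per the submitters' processing notes, STAR 2.5.4a, SAMtools, featureCounts and edgeR were used, with no role given. CPM steps gave reads per library, from 267509 to 1093126 over all features. Between 89.7% and 96.6% of the nonzero nuclear values were whole reads (within 0.01 read), so a count-based fit, voom on the recovered reads, served only as an alternative. A value of 0 allows up to 3 reads, and intervals and floors cover counting error only.

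CPM was divided by the nuclear mRNA total without ENO2 and tested with limma 3.58.1 in R 4.3.3 (lmFit, eBayes with trend) on log2(level + 50 RPM), where a mean of 100 RPM or more was needed, with Benjamini-Hochberg adjustment over 2008 features. The prior degrees of freedom were 5.11. Sums used Python 3.11.15. Systematic names came from a strain S288C gene table, matched by symbol, and positions from the deposited tables. No label says that replicates came from different days, so p-values measure only the spread between these cultures. The genes and lists were chosen with earlier results of these data known. Named were all 10 genes, their paralogs TPS3, NTH2 and PGM1, and called genes of the wider list, while others are marked. Alternatives were other pseudocounts, filters and scalings, no trend, voom, a replicate block, a length correction and leaving out each library.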

Additional observations from a re-analysis of the deposited data

How the results depend on the processing

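Directions and calls depended on the scale. On the deposited CPM, 289 features were called, 60 of them higher in ethanol, with 0 of the 10 genes and 0 other pathway genes called. The ratios of summed levels were then 1.39 for the 10 genes, 2.33 for glycogen, 1.52 for the precursor steps and 1.02 for trehalose. GSY1 (-0.019), UGP1 (-0.57) and NTH1 (-0.42) reversed. With ENO2 in the total, 1348 features were called, 105 higher and 1243 lower, with 0 of the 10 genes higher, 3 lower and 2 other pathway genes called. The ratios were 0.680, 1.17, 0.778 and 0.481, and GSY1 (-0.71), GSY2 (-0.30), GLC3 (-0.0038), UGP1 (-1.10), TPS1 (-0.55), TSL1 (-0.50) and NTH1 (-1.20) reversed. With ENO2 in the total the shift follows from the construction, as reads assigned to ENO2 took a larger part of that total in ethanol. Where the reads assigned to ENO2 came from was not tested. Centring on the median kept the 5 calls, with 282 features higher and 422 lower, against 356 and 319. GPH1 and PGM2 kept their direction in all 17 alternatives and were called in 15, all except these 2 scales.

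A pseudocount of 10 RPM gave 212 features lower. The filter at 300 RPM left 718 features tested, 8 of the 10 genes among them, and 435 were called, 212 of them higher. No other pathway gene reached that mean, with GLC7 the highest at 229.5 RPM, so their 0 calls there were fixed in advance. No filter gave 3 other pathway genes. TPS2 reversed to 0.20 with the length trend removed, and TPS3 to 0.37 there and to 0.11 with voom. Voom called 7 of the 10 genes higher, but also more of all features, 22.3% against 17.7% in the main fit. Leaving out 1 library gave between 287 and 1008 features called, between 188 and 500 higher and between 95 and 508 lower, between 3 and 6 of the 10 genes higher and between 0 and 1 other pathway genes. The lowest counts came without glucose replicates 2 and 3, 287 each, and 340 without replicate 1. Log2 fold changes of TPS2 were between -0.53 and 0.19, of NTH1 between -0.24 and 0.91 and of TPS3 between -0.32 and 0.12. The cause was not tested. With the replicate block, 698 features and 5 of the 10 genes were called, and no call among the 10 genes changed. Same-numbered libraries deviated with correlations of 0.01, -0.03 and 0.05, so the numbers alone do not pair them. Depth limits all single genes in ethanol replicate 1, where 3 reads equal 362 RPM.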
